A study of Mus musculus with 12 samples.

Results

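Immunoglobulin gene segments are the germline V (variable), D (diversity), J (joining) and C (constant) genes that encode the chains of antibodies and B cell receptors. They were described here in conventional dendritic cells (cDCs) from mouse spleen, cells that present antigen and do not make antibody. The members were all genes of the deposited expression table whose annotated gene type is IG_V_gene, IG_D_gene, IG_J_gene, IG_C_gene or IG_LV_gene, 268 of 55322 genes, so that no measured value chose them. The heavy chain locus held 144 of them (113 V, 19 D, 4 J and 8 C genes, chr12:113218450-115964081), the kappa light chain locus 108 (102 V, 5 J and 1 C gene, chr6:67532481-70703950) and the lambda light chain locus 12 (3 V, 5 J and 4 C genes, chr16:18880368-19079609). The other 4 were the IG_LV_gene entries, listed at 0 in every library. Coordinates are those of the deposited table, of unstated genome build.

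The study sequenced 12 RNA libraries in 4 groups of 3, which cross the cDC subsets 1 and 2 with a split into L and M that the labels do not spell out (L-cDC1 and M-cDC1, L-cDC2 and M-cDC2). All 12 carry the genotype label Il7r-cre; Rosa26-lsl-tdTomato, in which Cre expressed from the interleukin 7 receptor gene switches on a red fluorescent reporter. The design text and the growth protocol instead name wild-type C57BL/6J mice, naive, 7 to 8 weeks old and kept free of specific pathogens, and neither says how the reporter entered the sort. No label ties a library to an animal, so p-values measure only the spread between these libraries, which may be technical.

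Each chain is encoded by a gene that B cells assemble by DNA recombination: V, D and J segments join in the heavy locus, and V and J segments join in the kappa and lambda loci. The joined exon is spliced to a constant gene, first Ighm (IgM) and Ighd (IgD), and after class switching to an IgG, IgE or IgA constant gene. A heavy locus that has not been rearranged is also known to be transcribed, from starts upstream of the J cluster and in the intron between the J segments and Ighm. A read on Ighm or on a J segment therefore does not by itself show a rearranged gene, whereas V genes are read mainly after joining.

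The libraries held 15879864 to 24498235 reads assigned to genes, of which the members took between 0.0572% and 0.423%. Of the 268 members, 212 had at least 1 read in some library and 56 had none. The labelled subsets matched their defining genes: the summed FPKM (fragments per kilobase of gene, scaled to the library's assigned reads) of 10 cDC1 marker genes was 2137 to 2308 in cDC1 libraries and 169 to 181 in cDC2 libraries, and that of 10 cDC2 marker genes was 13.7 to 17.0 in cDC1 libraries and 964 to 1247 in cDC2 libraries.

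Differences were tested with limma on log2(FPKM + 1) over the 12434 genes that reached 1 FPKM in 3 or more libraries. The p-values were adjusted over all of them by the Benjamini-Hochberg method, and an adjusted p under 0.05 is a call. Of the 268 members, 86 passed that filter, and for 70 of the 86 no M library reached 1 FPKM. Those 70 entered the test through their L libraries alone. Their counts of calls therefore carry no weight as evidence, and neither do their single p-values between L and M given below. Between L and M, 9 of the 86 rose and 1 fell in cDC1, where 0.354% of all tested genes rose and 0.0402% fell. In cDC2, 48 of the 86 rose and 0 fell, against 1.04% and 0.788% of all tested genes. The median log2 difference of the 86 was 0.91 in cDC1 and 2.60 in cDC2, beside 0.02 and 0.03 over all tested genes. In cDC2 the calls fell on 10 of 16 heavy V, 19 of 43 kappa V, 3 of 3 lambda V, 1 of 4 heavy J, 5 of 5 kappa J and 4 of 6 heavy C genes tested, among others. RNA here comes from bulk cell sorts, in which fewer cells of a type and less RNA per cell cannot be told apart.

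**Figure D1:**
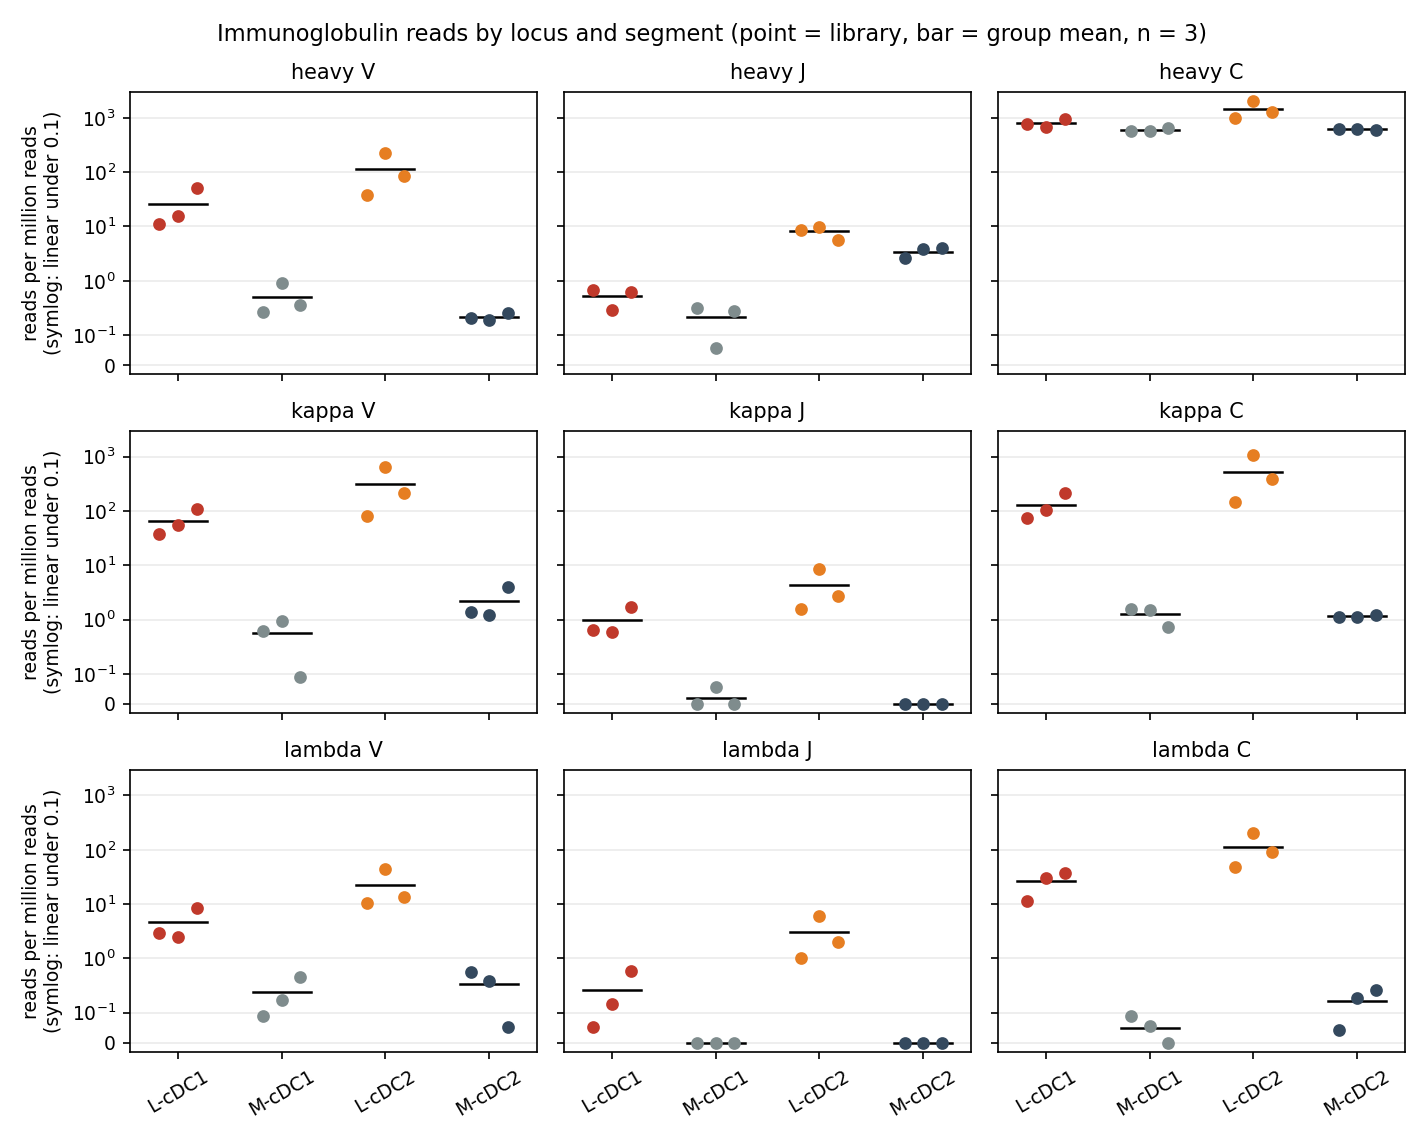
Reads per 1000000 assigned reads (axis logarithmic above 0.1 and linear below) on the V, J and C genes of the heavy, kappa and lambda loci, by group; a point is a library and a bar the mean of 3. Heavy C reads lie between 568 and 2044 in every library, while V genes and light chain C genes are higher in every L library than in the M libraries.

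Every library had abundant reads on the heavy constant genes, with or without reads on V genes. The heavy constant genes took 688 to 973 of 1000000 assigned reads in L-cDC1, 568 to 656 in M-cDC1, 995 to 2044 in L-cDC2 and 601 to 638 in M-cDC2. Nearly all of them lay on Ighm, the constant gene of IgM (chr12:113382178-113386350, minus strand), which held 97.3%, 95.6% and 80.6% of the heavy constant reads in L-cDC1, 97.4% to 98.6% in M-cDC1, 93.6%, 87.7% and 91.3% in L-cDC2 and 98.1% to 99.1% in M-cDC2. The M groups are thus nearly pure Ighm in their heavy constant reads.

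The Ighm level was 404, 349 and 416 FPKM in the 3 L-cDC1 libraries and 302, 293 and 343 in M-cDC1. It was 494, 950 and 610 FPKM in L-cDC2 and 332, 322 and 312 in M-cDC2. The L libraries lie above the M libraries in both subsets, narrowly in cDC1, and the 2 M groups overlap. In cDC2 Ighm rose by a log2 difference of 1.03 (limma, SE 0.18, adjusted p = 0.00641), a call that was lost without the low-value filter (adjusted p = 0.0535) and in a fit of these 2 groups alone (0.0897). In cDC1 the log2 difference was 0.32 (SE 0.18, limma adjusted p = 0.591), and between the M groups it was -0.05 (SE 0.18, limma adjusted p = 0.871).

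V gene reads did not follow Ighm. Per 100 heavy constant reads, the L-cDC1 libraries held 1.41, 2.28 and 5.16 heavy V reads and the L-cDC2 libraries 3.74, 10.8 and 6.67. The M-cDC1 libraries held 0.0459, 0.158 and 0.0555, and the M-cDC2 libraries 0.0320, 0.0309 and 0.0430. Each of the 6 M libraries carried 3 to 16 heavy V reads beside 9723 to 15621 heavy constant reads. The kappa locus differed: its V and C reads were low together in M, and there were 49.7 to 60.8 V reads per 100 Igkc reads in the 6 L libraries. In the M libraries that kappa ratio rested on 16 to 35 Igkc reads and ranged from 12.5 to 330.

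Ighd, the IgD constant gene that is spliced from the same primary transcript as Ighm, separated the groups differently. It was at 9.16, 13.5 and 13.3 FPKM in the L-cDC1 libraries, 5.23, 5.15 and 2.92 in M-cDC1, 6.76, 21.6 and 14.8 in L-cDC2, and 0.795, 1.16 and 2.01 in M-cDC2. Both L groups lie above their M groups, and M-cDC1 lies above M-cDC2. Ighd rose in L-cDC2 over M-cDC2 (log2 difference 2.63, SE 0.34, limma adjusted p = 0.000578) and was higher in M-cDC1 than in M-cDC2 (log2 difference 1.23, SE 0.34, limma adjusted p = 0.0108). The latter call was lost without the low-value filter (adjusted p = 0.0577), and the difference between L-cDC1 and M-cDC1 (log2 1.27, SE 0.34) was not called (limma adjusted p = 0.152).

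The 4 heavy J segments separated cDC2 from cDC1 in the M groups as well as in the L groups. They are short exons of about 50 bases that lie in a row upstream of Ighm. Their sequences are printed here because a J segment is recognised by its tryptophan-glycine core, marked in capitals (the letters TGGGG, 4 free bases and GGNAC, searched on the coding strand). They are read 5′ to 3′ from the GENCODE M21 transcripts, in which Ighj2 is shorter than in the deposited table:
Ighj1: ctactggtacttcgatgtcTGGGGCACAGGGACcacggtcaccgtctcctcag
Ighj2: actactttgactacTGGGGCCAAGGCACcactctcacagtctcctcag
Ighj3: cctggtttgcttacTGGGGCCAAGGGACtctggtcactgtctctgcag
Ighj4: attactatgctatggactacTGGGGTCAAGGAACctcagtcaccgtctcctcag

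All 4 heavy J segments hold that core. Iglj1, a lambda J segment that comes up again with the light chains, has the phenylalanine-glycine core of light chain J segments instead (TTCGG, 4 free bases and GGNAC, in capitals):
Iglj1: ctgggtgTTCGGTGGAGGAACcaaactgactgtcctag

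Because a J segment is so short, 3 reads on a 53-base J gene already amount to 2.31 to 3.56 FPKM, and reads are given first. Ighj1 (chr12:113393401-113393453), the segment farthest from Ighm, had 0 reads in each L-cDC1 library, 7, 1 and 6 reads in M-cDC1, 55, 51 and 44 in L-cDC2, and 34, 17 and 23 in M-cDC2. Ighj4 (chr12:113392134-113392187), the segment nearest to Ighm, had 2, 1 and 9 reads in L-cDC1, 0 in every M-cDC1 library, 69, 52 and 16 in L-cDC2, and 13, 15 and 21 in M-cDC2. Both segments are therefore read in every cDC2 library, at levels that do not overlap with the cDC1 libraries of the same L or M group.

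Ighj2 had 8, 3 and 0 reads in L-cDC1, 0 in M-cDC1, 39, 46 and 25 in L-cDC2, and 10, 18 and 25 in M-cDC2. Ighj3 had 3, 2 and 3 reads in L-cDC1, 0 in M-cDC1, 45, 68 and 17 in L-cDC2, and 6, 10 and 8 in M-cDC2. In M-cDC1, Ighj1 was thus the only heavy J segment with reads, and in L-cDC1 it was the only one without any.

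Within M, where V reads were scarce, all 4 heavy J segments were lower in cDC1 than in cDC2. The log2 difference was -2.42 for Ighj1 (SE 0.33, limma adjusted p = 5.36e-05), -3.26 for Ighj2 (SE 0.48, 0.000110), -3.23 for Ighj3 (SE 0.36, 8.67e-06) and -4.01 for Ighj4 (SE 0.52, 3.22e-05). These 4 calls held under all 15 alternative settings. In all, 6 members were lower and 2 higher in M-cDC1 than in M-cDC2, where 25.4% of all tested genes were lower and 12.7% higher. The other members were Igkv14-111, Ighg2b, Ighd and Ighg2c. The summed FPKM of 16 B cell identity genes also differed, 39.8 to 48.2 in M-cDC1 and 138 to 169 in M-cDC2. The genes did not all go that way: of 14 tested, 6 were lower and 2 higher in M-cDC1. Pax5 was at 0 in both groups, and Cd79a overlapped between them. Their part in the J result was not tested.

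Within L the direction was the same. Ighj1 was lower in L-cDC1 than in L-cDC2 by a log2 difference of -5.51 (limma, SE 0.33, adjusted p = 1.36e-08), Ighj2 by -2.93 (SE 0.48, 0.000273), Ighj3 by -3.32 (SE 0.36, 6.77e-06) and Ighj4 by -3.21 (SE 0.52, 0.000231). In this comparison 50 members were lower and 3 higher in L-cDC1, where 26.6% of all tested genes were lower and 12.9% higher. For 14 of the 86 members no cDC1 library reached 1 FPKM, while every one of the 86 had a cDC2 library that did, so those 14 entered the test through cDC2 alone and the counts between subsets carry no weight as evidence either. The balance over all genes depends on the scaling: their median log2 difference, -0.18 in M and -0.19 in L, was -0.02 and -0.03 with median-of-ratios scaling, which gave 2179 genes higher and 2248 lower in M and 2259 higher and 2345 lower in L. The members split with it into 2 higher and 5 lower in M and 3 higher and 43 lower in L, and the 4 heavy J calls in M held.

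Set against Ighm, J reads followed the subset more than the split into L and M. Per 100 heavy constant reads there were 0.878, 0.487 and 0.446 heavy J reads in L-cDC2 and 0.403, 0.617 and 0.662 in M-cDC2, which overlap. The ratio was 0.0877, 0.0421 and 0.0644 in L-cDC1 and 0.0536, 0.00985 and 0.0417 in M-cDC1. The 6 cDC2 libraries all lie above the 6 cDC1 libraries.

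Between L and M, the J segments gave few calls. In cDC2 Ighj3 rose (log2 difference 2.02, SE 0.36, limma adjusted p = 0.00890), a call lost with limma-voom (0.125), without the filter (0.0665) and in a fit of the 2 groups alone (0.112), while Ighj1, at 43.6, 44.2 and 45.7 FPKM in L-cDC2 and 26.2, 20.2 and 22.4 in M-cDC2, was not called (log2 0.93, SE 0.33, limma adjusted p = 0.275). In cDC1 Ighj1 fell: it was at 5.88, 1.06 and 5.16 FPKM in the M libraries and at 0 in the L libraries (log2 difference -2.15, SE 0.33, limma adjusted p = 0.00926), a call lost without M-cDC1 replicate 3 (0.0592), without the filter (0.118), with limma-voom (0.212) and in a fit of the 2 groups alone (0.316). Ighj3 rose in cDC1 on 3, 2 and 3 reads against 0 (log2 difference 1.93, SE 0.36, limma adjusted p = 0.0412), and this call was lost whichever of the 6 libraries was left out (0.0602 to 0.177), with the replicate block (0.0502), without the filter (0.246), with a filter at 0.1 FPKM (0.0776) and with limma-voom (0.369).

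D genes were barely read. The 19 D genes had 33 reads in all 12 libraries together. Ighd4-1, the D gene next to the J cluster, had 1, 1 and 4 reads in L-cDC2, 0, 3 and 0 in M-cDC2 and 0 in every cDC1 library, which is too few to compare.

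**Figure D2:**
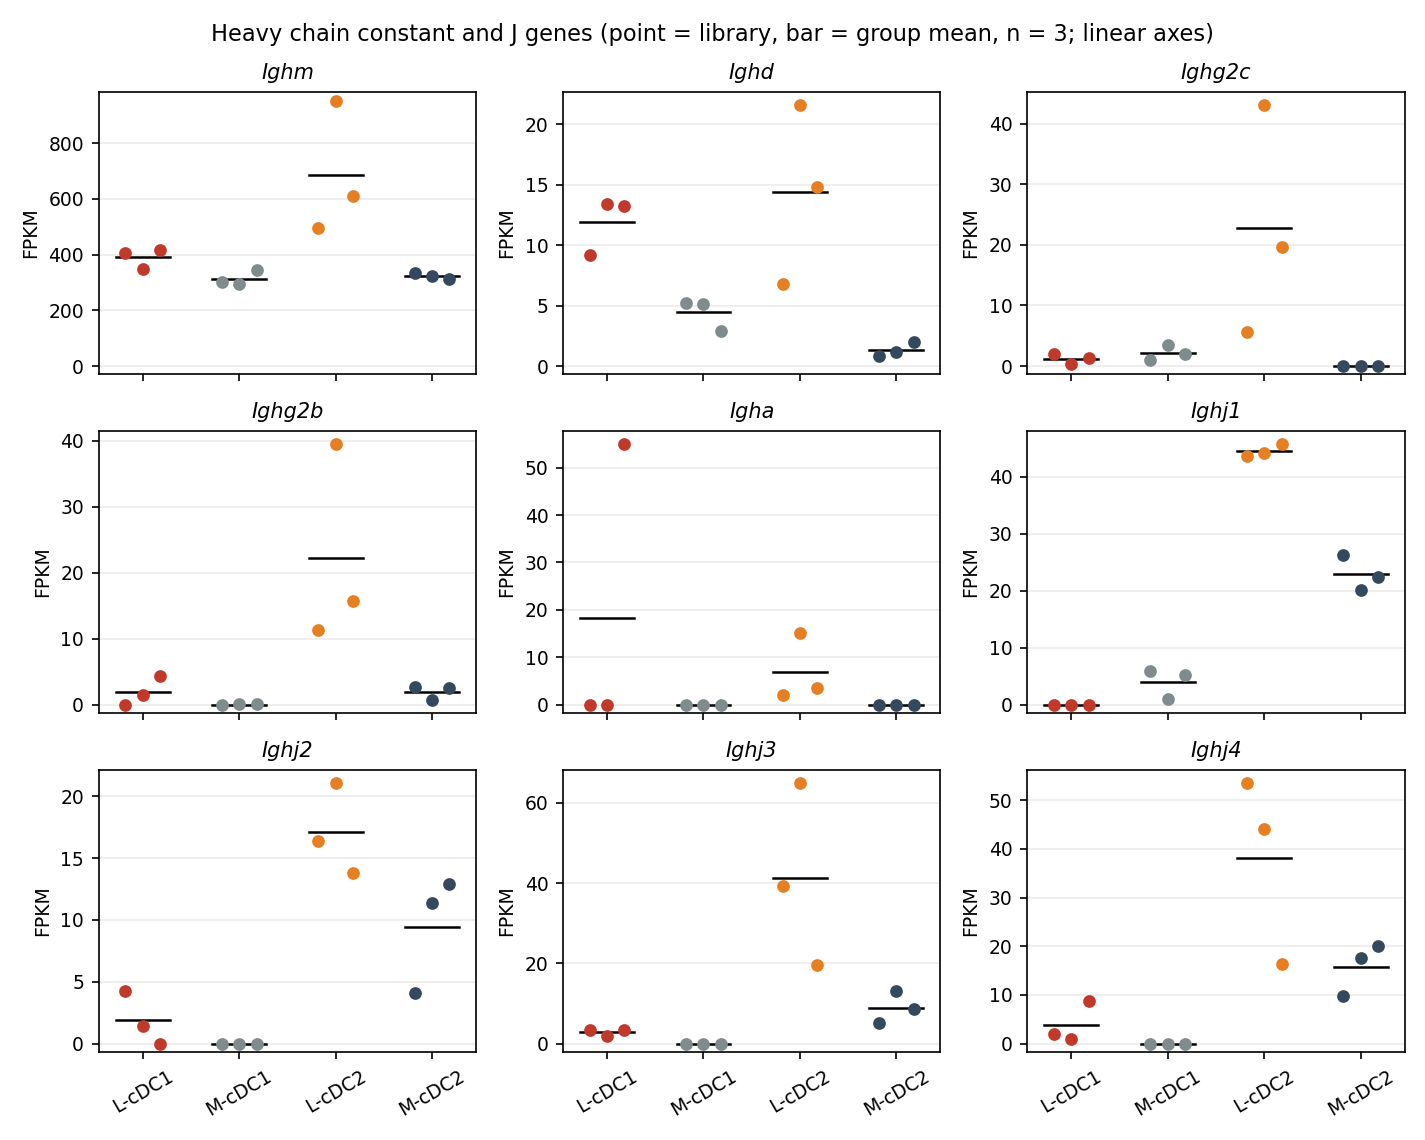
FPKM, on linear axes that differ between panels, of Ighm, Ighd, Ighg2c, Ighg2b, Igha and the 4 heavy J genes by group; a point is a library and a bar the mean of 3. Ighm is high in all 4 groups, and Ighj1 to Ighj4 are higher in the cDC2 libraries than in the cDC1 libraries of the same L or M group.

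Light chain genes, in contrast to Ighm, were close to 0 in both M groups. Igkc, the kappa constant gene (chr6:70703419-70703950, plus strand), was at 270, 1977 and 724 FPKM in L-cDC2 and at 2.07, 2.13 and 2.23 in M-cDC2. The L-cDC2 libraries differ widely among themselves, while the M-cDC2 libraries hardly do. Igkc rose by a log2 difference of 7.86 (limma, SE 0.54, adjusted p = 6.20e-06). M-cDC1 held 2.93, 2.84 and 1.37 FPKM, which spans the M-cDC2 values, and its log2 difference from M-cDC2 was 0.07 (SE 0.54, limma adjusted p = 0.944).

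The ratio of Igkc to Ighm FPKM shows how far the light chain departs from the heavy chain. It was 0.339, 0.557 and 0.973 in L-cDC1 and 0.547, 2.08 and 1.19 in L-cDC2. In M-cDC1 it was 0.00971, 0.00968 and 0.00399, and in M-cDC2 0.00623, 0.00662 and 0.00714. Both M groups lie far below both L groups.

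Of the lambda constant genes, Iglc1 was at 1.16, 10.6 and 13.9 FPKM in the L-cDC1 libraries, 0.0981, 0.123 and 0 in M-cDC1, 32.4, 130 and 57.4 in L-cDC2, and 0.0899, 0 and 0 in M-cDC2. It rose in cDC2 (log2 difference 5.94, SE 0.59, limma adjusted p = 7.64e-05), and its difference in cDC1, 2.75 (SE 0.59), was not called (limma adjusted p = 0.0637). Iglc3, at 9.83, 20.8 and 30.4 FPKM in L-cDC1 and 18.8, 97.6 and 45.3 in L-cDC2, rose in both subsets (log2 differences 4.24 and 5.37, each with SE 0.46, limma adjusted p = 0.000676 and 2.85e-05), the cDC1 call being lost with limma-voom (0.0543). The coding sequences of Iglc2 and Iglc3 are 95.5% identical, and Iglc3 overlaps a long noncoding RNA gene on the other strand in a kit that does not mark strand, so the split of reads between them is uncertain. Iglc4 was seen in 2 libraries, at 2.76 FPKM in L-cDC1 replicate 2 and 1.61 in L-cDC2 replicate 2.

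Lambda genes made up 13.6% (95% exact binomial interval 11.9 to 15.3), 23.0% (21.4 to 24.6) and 14.9% (13.9 to 15.9) of the light constant reads in L-cDC1. The shares in L-cDC2 were 25.2% (23.9 to 26.5), 16.2% (15.7 to 16.6) and 18.8% (18.0 to 19.7). The L groups overlap, and libraries of 1 group differ beyond their intervals, which cover counting error only.

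The light chain J segments followed the light chain constant genes. In L-cDC2 the 5 kappa J genes had 37, 184 and 50 reads in sum, against 0 in every M-cDC2 library, and all 5 rose, for example Igkj5 (17, 55 and 10 reads; log2 difference 4.64, SE 0.51, limma adjusted p = 0.000162). The calls of Igkj2 and Igkj3 were lost with limma-voom (0.0659 and 0.0852) and in a fit of the 2 groups alone (0.0824 and 0.0826), and those of Igkj3 and Igkj4 without the filter (0.0536 and 0.0692). In cDC1 they had 12, 12 and 33 reads in L and 0, 1 and 0 in M, and 0 of the 5 were called; the lowest adjusted p, for Igkj5, was 0.0649. Iglj1 had 20, 93 and 23 reads in L-cDC2, 0, 2 and 1 in L-cDC1 and 0 in every M library. In L, Iglj1 was lower in cDC1 than in cDC2 by a log2 difference of -4.46 (limma, SE 0.50, adjusted p = 8.64e-06).

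V genes, each with a promoter of its own, were counted where a library held at least 3 reads on them, which amounts to 0.342 to 0.528 FPKM for a V gene of 358 bases, the median length. By that count, 38, 61 and 67 of the 218 V genes were present in the L-cDC1 libraries, 2, 4 and 3 in M-cDC1, 83, 138 and 120 in L-cDC2, and 4, 2 and 5 in M-cDC2. The L groups lie above their M groups without overlap, and L-cDC2 lies above L-cDC1. The V reads behind these counts were 968, 1504 and 3171 in L-cDC1, 22, 36 and 20 in M-cDC1, 3068, 19744 and 5604 in L-cDC2, and 53, 28 and 82 in M-cDC2, so the counts have to be read at equal numbers of V reads.

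At 968 V reads, the most that every L library could give, the expected number of V genes with at least 1 read was 53, 68.3 and 67.6 in L-cDC1 and 82.0, 98.7 and 106 in L-cDC2. L-cDC2 thus spread its reads over more V genes than L-cDC1 at equal V reads, in every library. The effective number of V genes (the inverse of the chance that 2 random V reads of a library fall on the same gene) was 4.52, 9.02 and 6.54 in L-cDC1 and 19.4, 20.2 and 18.9 in L-cDC2. With 3 libraries against 3, an exact permutation test cannot go below a 2-sided p of 0.10, and none was run. At 20 V reads, the most that all 12 libraries could give, the expected number was 8.83, 11.7 and 9.49 in L-cDC1, 12.3, 13.0 and 6 in M-cDC1, 13.7, 14.4 and 14.5 in L-cDC2, and 7.26, 8.43 and 6.78 in M-cDC2. At that depth L-cDC1 and M-cDC1 overlap, so the smaller number of V genes seen in M-cDC1 is not distinguishable from its smaller number of V reads.

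Annotated V pseudogenes gave a background for these counts. Of 158 V pseudogenes, 12 (7.59%) reached 3 reads in some library, with 142 reads in all 12 libraries together. Of the 218 V genes, 171 (78.4%) did, with 34300 reads. Per 100 V reads there were 0.930, 0 and 0.284 pseudogene reads in L-cDC1 and 0.619, 0.329 and 0.357 in L-cDC2. The ratio was 0, 11.1 and 25 in M-cDC1 and 9.43, 21.4 and 0 in M-cDC2, on 0 to 6 pseudogene reads. The few V genes counted in M thus lie nearer to this background than those in L.

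Sharing of V genes among the L libraries was limited by depth. L-cDC1 replicate 1, with 968 V reads, had only 38 V genes with at least 3 reads, so no more than 38 could be shared by all. Of the 218, 17 had at least 3 reads in all 6 L libraries, among them Ighv6-3, Ighv1-64 and Ighv1-81 of the heavy locus and 12 kappa genes. A further 38 reached 3 reads in a single L library, and 50 in none. In the M libraries 202 of the 218 V genes never reached 3 reads, and Igkv14-111 was the one V gene to do so in 3 M libraries.

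**Figure D3:**
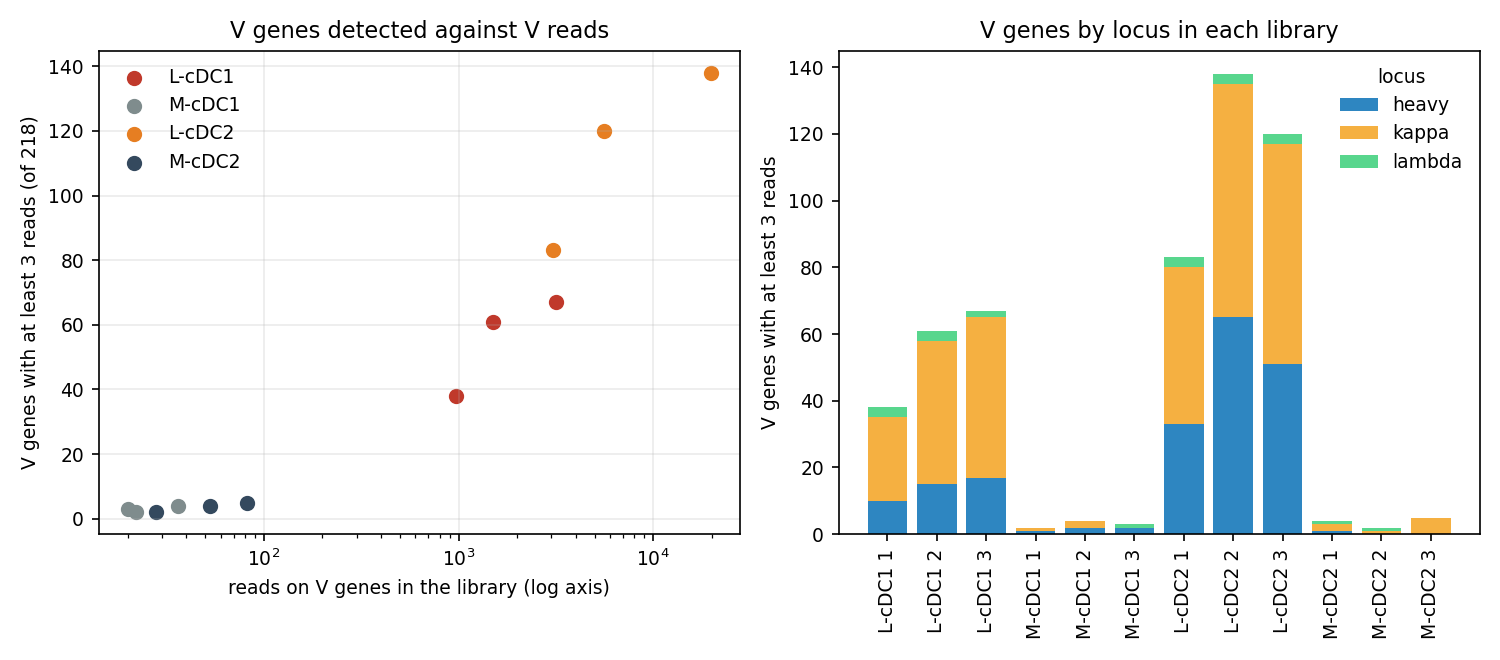
Left, the number of V genes with at least 3 reads against the reads on V genes (log axis), a point a library; right, the same number split by locus in each library. The M libraries hold 2 to 5 such genes on 20 to 82 V reads, and L-cDC2 replicate 1 holds 83 on 3068 V reads where L-cDC1 replicate 3 holds 67 on 3171.

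Different V genes led in different libraries. In L-cDC1 replicate 1, Igkv4-55 took 43.8% of all V reads (95% exact binomial interval 40.6 to 47.0) and Ighv1-80 took 63.6% of the heavy V reads. In L-cDC1 replicates 2 and 3, Igkv4-57 took 28.9% (26.6 to 31.2) and 26.8% (25.3 to 28.4) of all V reads, and Ighv1-81 took 49.8% and 85.2% of the heavy V reads. The leading pair was therefore shared by replicates 2 and 3 and differed in replicate 1, where Igkv4-57 had 45 reads and Ighv1-81 had 40.

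These 4 genes are printed here, since 1 kappa and 1 heavy gene of them had the most reads of their locus in each L-cDC1 library. The coding sequences are from the GENCODE M21 transcripts, 5′ to 3′, with the first 300 bases shown and the letters that differ within each pair in capitals. Over the whole coding part, Igkv4-57 and Igkv4-55 differ at 18 of 352 positions (94.9% identical), with a longest identical run of 73 bases:
Igkv4-57: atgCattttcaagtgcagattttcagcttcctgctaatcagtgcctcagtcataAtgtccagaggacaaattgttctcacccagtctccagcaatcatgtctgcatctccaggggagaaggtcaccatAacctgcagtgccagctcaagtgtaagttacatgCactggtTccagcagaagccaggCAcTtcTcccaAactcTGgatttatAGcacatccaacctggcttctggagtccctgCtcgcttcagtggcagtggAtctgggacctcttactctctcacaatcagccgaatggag
Igkv4-55: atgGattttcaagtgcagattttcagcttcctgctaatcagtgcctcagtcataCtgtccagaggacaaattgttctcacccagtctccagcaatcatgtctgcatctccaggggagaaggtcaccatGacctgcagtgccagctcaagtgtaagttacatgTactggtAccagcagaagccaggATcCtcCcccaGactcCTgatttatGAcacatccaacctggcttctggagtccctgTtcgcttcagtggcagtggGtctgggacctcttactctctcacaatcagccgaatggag

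Ighv1-81 and Ighv1-80, shown in the same way, differ at 38 of 351 positions (89.2% identical), with a longest identical run of 52 bases:
Ighv1-81: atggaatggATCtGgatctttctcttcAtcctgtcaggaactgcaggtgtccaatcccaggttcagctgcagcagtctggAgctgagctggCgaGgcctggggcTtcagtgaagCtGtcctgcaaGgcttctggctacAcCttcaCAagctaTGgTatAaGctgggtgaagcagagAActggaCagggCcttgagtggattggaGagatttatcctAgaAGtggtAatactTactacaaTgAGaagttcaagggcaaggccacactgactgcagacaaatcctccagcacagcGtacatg
Ighv1-80: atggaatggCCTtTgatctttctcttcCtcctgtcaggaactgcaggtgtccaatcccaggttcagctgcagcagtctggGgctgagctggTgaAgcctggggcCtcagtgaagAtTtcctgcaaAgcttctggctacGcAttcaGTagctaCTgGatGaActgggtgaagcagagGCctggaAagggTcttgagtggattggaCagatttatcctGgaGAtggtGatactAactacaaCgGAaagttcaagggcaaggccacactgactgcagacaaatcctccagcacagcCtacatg

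Igkv4-57 (chr6:69552959-69553484) was at 6.76, 59.5 and 126 FPKM in L-cDC1, 0 in every M-cDC1 library, 1.19, 5.21 and 2.97 in L-cDC2 and 0 in M-cDC2. It was the reverse of most members, with L-cDC1 above L-cDC2 in every library: the log2 difference was 3.37 (SE 0.72, limma adjusted p = 0.00204). Against M-cDC1 it rose by 5.29 (SE 0.72, limma adjusted p = 0.00417), a call lost without the low-value filter (0.0901), with limma-voom on recovered reads (0.0801) and in a fit of the 2 groups alone (0.243). Ighv1-81 (chr12:115883899-115884332) was at 6.03, 22.3 and 122 FPKM in L-cDC1, 0 in M-cDC1, 1.55, 6.80 and 9.58 in L-cDC2, and 0, 0 and 0.147 in M-cDC2. Its L groups overlap, and it rose in L-cDC1 over M-cDC1 by a log2 difference of 4.77 (limma, SE 0.75, adjusted p = 0.0110), a call lost without M-cDC1 replicate 2 (0.0711) or 3 (0.0592), without the low-value filter (0.162), with limma-voom (0.0752) and in a fit of the 2 groups alone (0.2995).

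Igkv4-55 and Ighv1-80 each rested on 1 L-cDC1 library. Igkv4-55 had 424, 8 and 4 reads in L-cDC1 and 183, 7 and 21 in L-cDC2. Ighv1-80 had 133, 0 and 0 reads in L-cDC1 and 53, 386 and 49 in L-cDC2. Igkv4-55 has 8 V genes within 95% identity, the nearest Igkv4-68 at 96.6%, so the assignment of its reads is uncertain.

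Igkv6-15 (chr6:70383453-70383976) was read in all 6 L libraries. It had 65, 63 and 140 reads in L-cDC1, 2, 0 and 0 in M-cDC1, 47, 60 and 77 in L-cDC2 and 0 in M-cDC2, so that every L library lies above every M library. In cDC1 its FPKM was 9.91, 8.76 and 21.1 in the L libraries and 0.257, 0 and 0 in the M libraries. It rose by a log2 difference of 3.62 (limma, SE 0.30, adjusted p = 0.000169), a call that held under all 15 alternative settings. Igkv6-15 passed the filter through its L libraries alone, so this call carries no weight as evidence.

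In L-cDC2 the leading genes were Ighv6-3 in replicate 1, with 12.5% of all V reads (95% exact binomial interval 11.3 to 13.7) and 43.1% of the heavy V reads, and Igkv12-46 in replicates 2 and 3, with 16.6% (16.1 to 17.1) and 18.9% (17.9 to 20) of all V reads. Ighv6-3 was at 45.0, 1.93 and 3.25 FPKM in L-cDC2 and at 0.594, 0.677 and 1.03 in L-cDC1. It therefore stands out in 1 library only. The leading heavy gene in L-cDC2 replicate 2 was Ighv1-22 (14.2% of heavy V reads) and in replicate 3 Ighv1-85 (9.5%).

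Igkv12-46 (chr6:69741507-69742006) separated the L groups. It had 0, 9 and 1 reads in L-cDC1, 1, 1 and 0 in M-cDC1, 224, 3272 and 1061 in L-cDC2, and 0, 1 and 5 in M-cDC2. Its FPKM was 24.9, 398 and 155 in L-cDC2 and 0, 1.15 and 0.139 in L-cDC1. In L, it was lower in cDC1 than in cDC2 by a log2 difference of -6.44 (limma, SE 0.69, adjusted p = 5.10e-06), a call that held under all 15 alternative settings.

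2 relatives on the same stretch of chromosome 6, Igkv12-44 and Igkv12-41, were also highest in L-cDC2. Igkv12-44 was at 0, 185 and 9.34 FPKM in L-cDC2 and at most 2.35 in any other library, and Igkv12-41 was at 1.33, 117 and 57.5 in L-cDC2 and at most 1.39 elsewhere. The 3 genes are 95.1% to 95.7% identical over 347 coding bases, with identical runs of up to 113 bases, so reads could be split among them. The sequences, first 300 coding bases from the same source, hold 19 of the 24 positions at which any of the 3 differ, in capitals:
Igkv12-46: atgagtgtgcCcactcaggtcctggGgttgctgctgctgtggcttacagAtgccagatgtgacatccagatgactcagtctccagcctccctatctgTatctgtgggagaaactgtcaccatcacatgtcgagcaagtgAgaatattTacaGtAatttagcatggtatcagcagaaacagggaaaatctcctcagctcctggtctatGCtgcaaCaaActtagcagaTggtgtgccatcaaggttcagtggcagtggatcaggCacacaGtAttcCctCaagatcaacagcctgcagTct
Igkv12-44: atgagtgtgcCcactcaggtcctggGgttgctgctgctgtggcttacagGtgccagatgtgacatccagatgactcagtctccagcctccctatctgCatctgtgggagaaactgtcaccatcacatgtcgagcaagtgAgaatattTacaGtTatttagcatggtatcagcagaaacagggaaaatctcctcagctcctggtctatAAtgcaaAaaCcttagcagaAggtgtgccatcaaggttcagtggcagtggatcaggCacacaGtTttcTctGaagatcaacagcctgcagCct
Igkv12-41: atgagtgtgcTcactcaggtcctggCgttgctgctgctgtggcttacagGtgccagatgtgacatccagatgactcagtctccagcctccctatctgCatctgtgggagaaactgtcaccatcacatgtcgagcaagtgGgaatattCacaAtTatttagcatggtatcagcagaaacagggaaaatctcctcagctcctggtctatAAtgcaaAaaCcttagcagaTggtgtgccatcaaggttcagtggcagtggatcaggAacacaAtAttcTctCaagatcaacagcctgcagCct

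By family, the Igkv12 genes (6 of the 102 kappa V genes, 5.88%) took 0.142%, 2.3% and 1.32% of the kappa V reads in L-cDC1 and 12.2%, 43.4% and 39.1% in L-cDC2. The Igkv4 genes (26 of 102, 25.5%) took 76.8%, 62.5% and 50.5% in L-cDC1 and 14.4%, 11.7% and 7.64% in L-cDC2. The Ighv1 genes (53 of the 113 heavy V genes, 46.9%) took 90.9%, 80.0% and 94.7% of the heavy V reads in L-cDC1 and 43.5%, 68.3% and 66.6% in L-cDC2. In each of these 3 families the L groups do not overlap.

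The median position of the heavy V reads differed between the L groups, though in several libraries it was the position of the leading gene. The median heavy V read lay 2483, 2439 and 2491 kilobases from the first J gene in L-cDC1 and 962, 1359 and 1253 in L-cDC2, where the median over the V genes themselves is 1182. For kappa V reads the medians were 1115, 1147 and 1147 kilobases in L-cDC1 and 996, 958 and 958 in L-cDC2, beside 1314 for the genes. The heavy median fell on Ighv1-80 in L-cDC1 replicate 1, on Ighv1-81 in replicate 3 and on Ighv6-3 in L-cDC2 replicate 1. The kappa median fell on Igkv4-55 in L-cDC1 replicate 1, on Igkv4-57 in replicates 2 and 3, and on Igkv12-46 in L-cDC2 replicates 2 and 3. In those libraries the median restates the leading gene. The 33.6% of heavy V genes farthest from the J genes, Ighv1-80 and Ighv1-81 among them, held 89.5%, 81.8% and 92.8% of the heavy V reads in L-cDC1. They held 32.5%, 42.9% and 33.7% in L-cDC2. Whether a preference for a part of the locus remains without the leading genes was not tested.

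**Figure D4:**
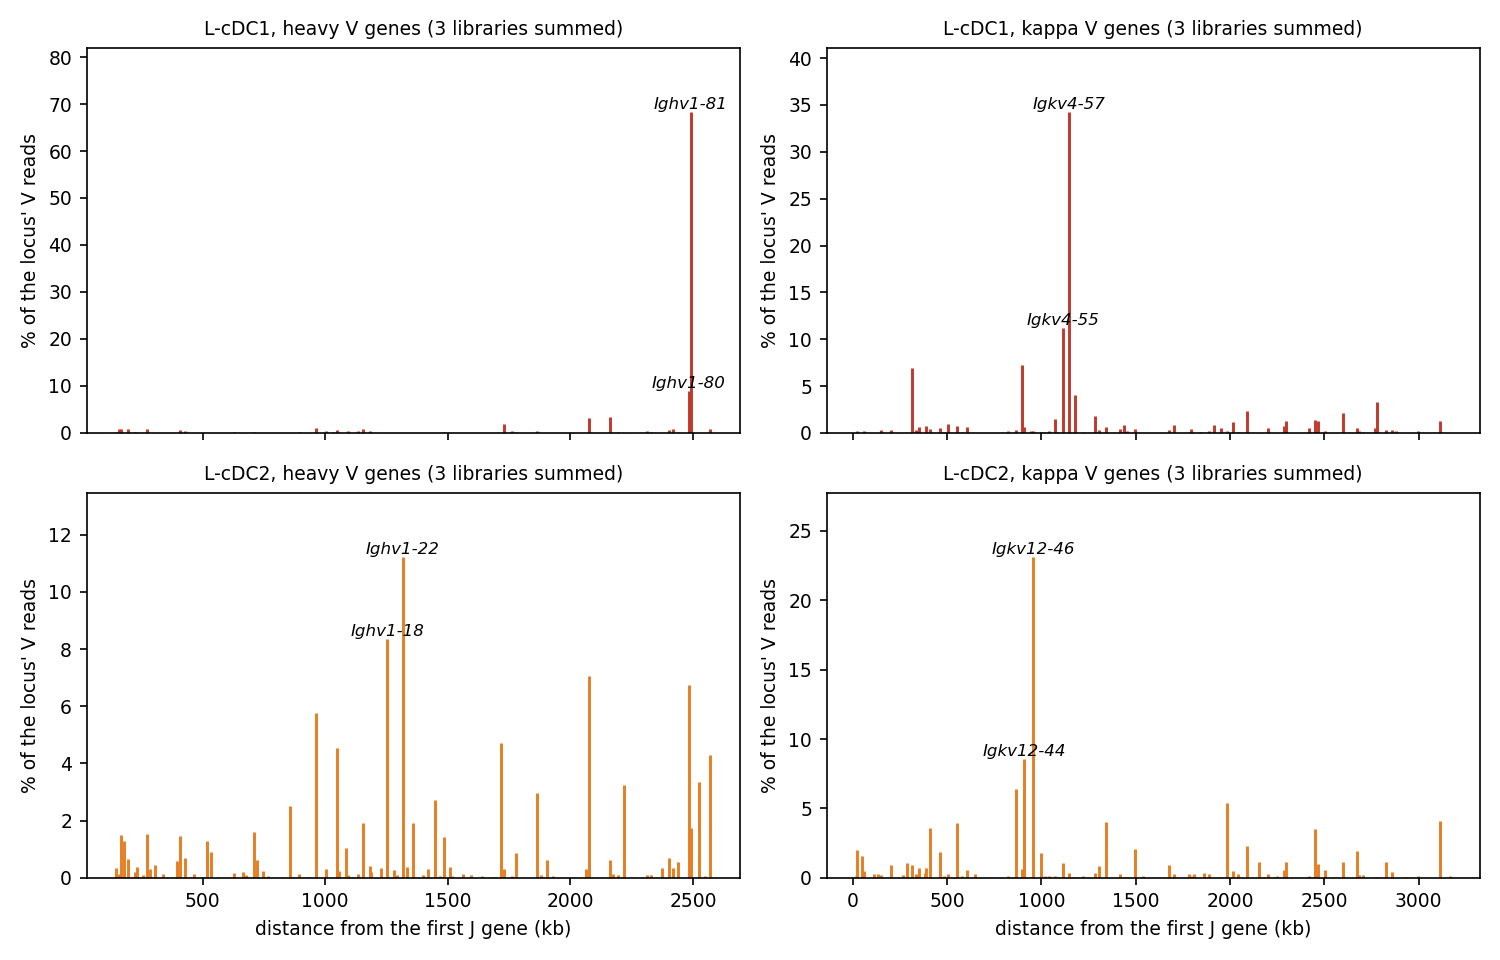
Share of the heavy (left) or kappa (right) V reads on each V gene, in percent, by its distance from the first J gene in kilobases; the 3 libraries of L-cDC1 (top) and of L-cDC2 (bottom) are summed, and the 2 leading genes are named. L-cDC1 heavy V reads lie mostly on Ighv1-81 and Ighv1-80, far from the J genes (medians 2439 to 2491 kilobases), and L-cDC2 heavy V reads are spread along the locus (medians 962 to 1359 kilobases).

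In the M libraries the V gene with the most reads was Igkv14-111 (chr6:68233373-68233853), and it had no read in M-cDC1. It had 24, 13 and 47 reads in M-cDC2 (2.66, 2.22 and 6.59 FPKM). It took 45.3%, 46.4% and 57.3% of the M-cDC2 V reads. It was lower in M-cDC1 than in M-cDC2 by a log2 difference of -2.16 (limma, SE 0.49, adjusted p = 0.00318), and this call held under all 15 alternative settings.

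Igkv14-111 was also lower in L-cDC1 (0.144, 4.98 and 1.28 FPKM) than in L-cDC2 (6.50, 6.11 and 12.6), by a log2 difference of -1.85 (limma, SE 0.49, adjusted p = 0.00832; 0.0506 without the filter). Between L-cDC2 and M-cDC2 its ranges overlap narrowly and it was not called (log2 difference 1.0, SE 0.49, limma adjusted p = 0.516). Its nearest V gene, Igkv14-126, is 91.5% identical to it.

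Lambda V reads were found in every L library and were fewer in M. Iglv1 was at 2.71, 1.36 and 14.3 FPKM in the L-cDC1 libraries, 0.228, 0 and 1.16 in M-cDC1, 18.7, 68.5 and 27.9 in L-cDC2, and 0.209, 0 and 0.132 in M-cDC2. Its highest M-cDC1 library, replicate 3, lies just under its lowest L-cDC1 library. It rose in cDC2 (log2 difference 4.94, SE 0.58, limma adjusted p = 0.000289). Iglv3, at 3.89, 2.15 and 7.27 FPKM in L-cDC1 and 0, 0.147 and 0 in M-cDC1, rose in cDC1 (log2 difference 2.26, SE 0.38, limma adjusted p = 0.0169), a call lost without L-cDC1 replicate 3 (0.0730), M-cDC1 replicate 2 (0.0746) or M-cDC1 replicate 3 (0.0816), without the low-value filter (0.162), with limma-voom (0.0634) and in a fit of the 2 groups alone (0.145). In cDC2 Iglv3 was at 4.74, 9.15 and 4.34 FPKM in L and 1.29, 0.992 and 0 in M, on 12, 6 and 0 reads. It rose (log2 difference 2.03, SE 0.38, limma adjusted p = 0.0105), a call lost under 6 of the 15 alternative settings (0.0542 to 0.0725). Iglv1 and Iglv2 are 96.9% identical, so their reads may be split.

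The constant genes used after class switching held a small share of the heavy constant reads in most libraries. Whether these reads came from switched genes was not tested. IgG, IgE and IgA together took 0.492%, 0.666% and 16.9% in L-cDC1, 0.528%, 0.906% and 0.555% in M-cDC1, 5.10%, 10.3% and 6.42% in L-cDC2, and 1.42%, 0.525% and 1.24% in M-cDC2. L-cDC2 lies above the M groups in every library, whereas L-cDC1 does so in 1 library.

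That library, L-cDC1 replicate 3, was high through IgA. Igha, the IgA constant gene (chr12:113218450-113223856), had 2809 reads there (55.0 FPKM, 15.1% of its heavy constant reads) and 3 and 1 reads in the other L-cDC1 libraries. It had 129, 884 and 176 reads in L-cDC2 and at most 2 in any M library. Igha was not called in either subset (log2 differences 1.95 and 2.56, SE 1.14, limma adjusted p = 0.612 in cDC1 and 0.458 in cDC2). The same library had 820 of the 1022 Ighv1-81 reads of L-cDC1.

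The IgG2 genes showed opposite orders in the M groups. Ighg2c, the C57BL/6 counterpart of Ighg2a, was at 1.07, 3.46 and 2.06 FPKM in M-cDC1 and 0, 0.0475 and 0 in M-cDC2. Ighg2b was at 0, 0.0836 and 0.0510 FPKM in M-cDC1 and 2.74, 0.682 and 2.52 in M-cDC2. Each was called, Ighg2c higher in M-cDC1 (log2 difference 1.59, SE 0.53, limma adjusted p = 0.0304) and Ighg2b lower (-1.43, SE 0.53, 0.0486). Leaving out single libraries ended both calls: Ighg2c without M-cDC1 replicate 2 (0.117) or 3 (0.0673) or any of the 3 M-cDC2 libraries (0.0639 to 0.0702), and Ighg2b without each of the 6 libraries except M-cDC2 replicate 2 (0.0948 to 0.145). Both were also lost without the filter (0.130 and 0.1799) and with a filter at 0.1 FPKM (0.0516 and 0.0785), and Ighg2b with median-of-ratios scaling (0.0646), quantile normalization (0.0814) and limma-voom (0.0528).

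In the L groups both genes were higher in cDC2. Ighg2c was at 5.60, 43.1 and 19.7 FPKM in L-cDC2 and 1.95, 0.291 and 1.38 in L-cDC1, and Ighg2b at 11.3, 39.5 and 15.7 in L-cDC2 and 0.0395, 1.55 and 4.33 in L-cDC1. Against M-cDC2, Ighg2c rose by a log2 difference of 4.16 (limma, SE 0.53, adjusted p = 0.000572) and Ighg2b by 2.85 (SE 0.53, 0.0113), the latter lost without L-cDC2 replicate 2 (0.0588) or M-cDC2 replicate 2 (0.0703), with a pseudocount of 0.1 (0.154), without the low-value filter (0.0839) and with limma-voom (0.0577). Ighg1 stayed at or below 0.842 FPKM and Ighg3 at or below 2.21 in every library, and Ighe was seen in L-cDC2 replicates 2 and 3 alone (1.59 and 0.834 FPKM).

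The difference between L and M was itself compared between the subsets. The signed log2 difference of L minus M was lower in cDC1 than in cDC2 for 6 of the 86 members tested, and higher for 0 (1, Igkv4-57, at an unadjusted p under 0.05; limma-voom called 0 in either direction). Over all tested genes, 0.105% were lower and 0.193% higher by this test. The 6 were Igkv5-48, Ighv3-6, Ighj1, Igkv12-46, Ighg2c and Iglj1, of which only Ighj1 and Ighg2c had an M-cDC1 library above 1 FPKM. The others passed the filter through L libraries alone. For them this test largely repeats the comparison of L-cDC1 with L-cDC2, and their calls carry no weight as evidence. For Ighj1 the call in cDC1 was a fall in L, while its difference in cDC2 was not called; for the other 5 the difference was called in cDC2 and not in cDC1. For Igkc (log2 difference of the differences -1.79, SE 0.77, limma adjusted p = 0.542) and Ighm (-0.71, SE 0.25, 0.411) the test did not find a difference.

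Genes that work with immunoglobulins moved in part with them. All 14 partners of the receptor (signalling chains, coreceptors and kinases of the B cell receptor) were tested. Of these, 6 rose in L over M in cDC1 and 5 in cDC2, and 0 fell, also at an unadjusted p under 0.05. With limma-voom, 2 and 6 were called higher. Over all tested genes, 0.354% rose and 0.0402% fell in cDC1, and 1.04% rose and 0.788% fell in cDC2. The same shares stand beside the counts of the lists below. Cd79a, the signalling chain that carries the receptor to the surface, was at 11, 15.7 and 23.6 FPKM in the L-cDC1 libraries, 0.153, 0.230 and 0.406 in M-cDC1, 15.2, 97.7 and 44.8 in L-cDC2, and 0.476, 0.216 and 0.850 in M-cDC2. It rose in both subsets (log2 differences 3.76 and 4.81, SE 0.47 each, limma adjusted p = 0.00239 and 7.64e-05). Its partner Cd79b stayed at 35.0, 23.4 and 28.6 FPKM in M-cDC2, against 38.8, 74.1 and 69.4 in L-cDC2, and was not called in cDC2 (log2 1.01, SE 0.39, limma adjusted p = 0.346).

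Genes of recombination and class switching gave no call. Of 14 listed, 10 were tested and 0 were called between L and M in either subset, by limma-trend or limma-voom; at an unadjusted p under 0.05, 0 were higher and 2 lower in cDC1 and 1 was higher in cDC2. Of those too low to test, Rag1 and Rag2, which cut DNA for joining, reached at most 0.00791 and 0.0268 FPKM, and Dntt, which adds bases at the joints, was at 0 in every library. Of 15 regulators of immunoglobulin transcription, 11 were tested, and 1 rose in each subset, Spib in cDC1 and Ikzf3 in cDC2; limma-voom called 0 in either, and 2 in each were higher at an unadjusted p under 0.05. Of 4 genes of the surrogate light chain and pre-B stage, Vpreb3 was tested, and it rose in cDC2 (log2 difference 1.87, limma adjusted p = 0.0206).

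Markers of other cells moved with the light chain and V genes, and their part in these results was not tested. Of 16 B cell identity genes, 14 were tested, and 8 rose in cDC1 and 9 in cDC2 (4 and 9 by limma-voom). Of all tested genes, 0.354% and 1.04% rose. Their summed FPKM was 87.0 to 193 in L-cDC1, 39.8 to 48.2 in M-cDC1, 243 to 488 in L-cDC2 and 138 to 169 in M-cDC2, and Pax5 was at 0 in both M groups. Igkc per Cd79a was 12.4, 12.4 and 17.1 in L-cDC1 and 17.8, 20.2 and 16.2 in L-cDC2, and the library with most Igkc, L-cDC2 replicate 2, also had most Cd79a. The ratio was 19.2, 12.3 and 3.37 in M-cDC1 and 4.35, 9.86 and 2.62 in M-cDC2, on 5 to 24 Cd79a reads a library.

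Of 10 plasma cell genes, 7 were tested, and 1 rose in each subset, Jchain, which links IgA and IgM units. Jchain was at 3.28, 3.68 and 9.92 FPKM in L-cDC1 and 4.94, 14.1 and 5.45 in L-cDC2, and at most 0.200 in M. Tnfrsf17 was at 0 in all 12 libraries and Mzb1 at 0 in both M groups. The summed FPKM of the list was 110 to 132 in L-cDC1, 104 to 122 in M-cDC1, 90.4 to 125 in L-cDC2 and 88.4 to 94.1 in M-cDC2.

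T and NK cell markers moved in the same direction. Of 12 listed, 9 were tested, and 3 rose in cDC1 and 6 in cDC2, where 0.354% and 1.04% of all tested genes rose. Their summed FPKM was 12.3 to 22.4 in L-cDC1, 1.51 to 2.12 in M-cDC1, 47.3 to 113 in L-cDC2 and 7.49 to 9.26 in M-cDC2. Cd3g was at 0 in both M groups, Trac and Klrb1c in M-cDC1, and Trbc2 and Gzma in M-cDC2. Nkg7, a gene of cytotoxic cells, was at 7.93, 6.23 and 3.94 FPKM in L-cDC1 and at most 0.146 in M-cDC1.

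The remaining lists gave fewer calls. Of 10 plasmacytoid dendritic cell genes, 7 were tested and 1 rose in each subset, Ly6d. Their summed FPKM was 71.8 to 90.7 in L-cDC1, 63.3 to 73.1 in M-cDC1, 87.0 to 124 in L-cDC2 and 49.8 to 53.5 in M-cDC2. Of 13 monocyte, macrophage and neutrophil genes, 10 were tested, with 0 called in cDC1 (3 lower at an unadjusted p under 0.05, 0 by limma-voom) and 2 lower in cDC2, Lyz2 and Csf1r. Their summed FPKM was lower in L than in M in every library of both subsets, 585 to 647 in L-cDC1 against 708 to 743 in M-cDC1 and 697 to 867 in L-cDC2 against 1452 to 1672 in M-cDC2. Lyz2, the lysozyme of myeloid cells, was at 223, 351 and 182 FPKM in L-cDC2 and 969, 1021 and 804 in M-cDC2 (log2 difference -1.93, SE 0.18, limma adjusted p = 5.00e-05). All 10 genes of the cDC1 and of the cDC2 marker lists were tested; 0 were called in cDC1, by limma-trend, limma-voom or an unadjusted p under 0.05, and in cDC2 Clec9a, Naaa and Cd209a fell. Of 5 erythroid genes, 4 were tested and 0 were called, by limma-trend or limma-voom; 1 was higher in cDC1 at an unadjusted p under 0.05.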

How the data were processed

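RNA from sorted spleen cDCs was made into unstranded SMART-Seq HT and Nextera XT libraries, per the labels' protocols. The authors deposited 1 table of FPKM values for 55322 genes in 12 libraries, with gene type, coordinates and length. Per the submitters' processing notes, the tools were Trim Galore 0.6.7, cutadapt 3.7, Trimmomatic 0.39, STAR 2.7.9a, featureCounts 2.0.1 and DESeq2 1.20.0. The notes name the human build GRCh38 although the gene symbols are mouse, so coordinates were used only as listed.

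Multiplying FPKM by gene length gave whole reads for every value within 0.01 read, and these reads gave depths, shares and V gene counts. Differences were tested with limma 3.58.1 in R 4.3.3 (limma-trend on log2(FPKM + 1), all 4 groups in 1 fit, Benjamini-Hochberg adjustment). The fit was tested on simulated data. limma-voom on the recovered reads was an alternative, with no filter, other pseudocounts, filters and scalings, and each library left out. Expected V gene numbers at equal reads were computed by rarefaction. Intervals are exact binomial and cover counting error only.

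Named genes were every C gene, tested J and D genes, the 6 V genes of highest mean FPKM per locus (lambda: all), members called within M or in the subset comparison of L minus M, each library's leading V gene, and pathway genes from fixed lists. Igkv6-15, Igkv4-68, Igkv14-126, Ighv1-85, Ighv8-6 and Ighv9-3 were named after their values were seen. The members and lists were chosen with earlier results of these data known. The values of some listed genes are not reported here.

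Sequences come from the GENCODE M21 transcripts (266 of 268 members matched by symbol); promoter and protein sequences were not used here.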

Additional observations from a re-analysis of the deposited data

Results flagged for a closer look

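For 6 members the difference between L and M was itself different in the 2 subsets, by a term for that comparison in the limma model over all 12 libraries. In each the signed log2 difference of L minus M was lower in cDC1 than in cDC2, and no explanation was tested. Ighv3-6 and Iglj1 were at 0 in every M library, so their values equal those of L-cDC1 minus L-cDC2 (-3.11 and -4.46). For Igkv5-48 and Igkv12-46, with few M reads, the values come close to it (-3.73 and -6.44). All of these passed the filter through L libraries alone, so their calls are no separate result and carry no weight as evidence.

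Igkv12-46, a kappa V gene, had a log2 difference of the differences of -6.24 (SE 0.97, limma adjusted p = 0.0158), with 224, 3272 and 1061 reads in L-cDC2 and 0, 9 and 1 in L-cDC1. Igkv5-48, another kappa V gene, was at 19.1, 18.6 and 6.58 FPKM in L-cDC2 and 0, 0 and 0.290 in L-cDC1, with a value of -3.78 (SE 0.45, limma adjusted p = 0.00581). Ighv3-6, a heavy V gene, was at 3.96, 7.6 and 14.2 FPKM in L-cDC2 and 0 in the 9 other libraries, with a value of -3.11 (SE 0.44, limma adjusted p = 0.0106).

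Ighj1, the heavy J segment that L-cDC1 lacked, had a value of -3.08 (SE 0.47, limma adjusted p = 0.0137). Its log2 difference of L minus M was -2.15 in cDC1, which was called (limma adjusted p = 0.00926), and 0.93 in cDC2, which was not (0.275). Ighg2c, an IgG2 constant gene, had a value of -4.71 (SE 0.75, limma adjusted p = 0.0166). Its log2 difference of L minus M was -0.55 in cDC1, which was not called (limma adjusted p = 0.806), and 4.16 in cDC2, which was (0.000572). Iglj1, a lambda J segment, had a value of -4.46 (SE 0.71, limma adjusted p = 0.0166).

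None of the 6 calls held in limma-voom on the recovered reads (adjusted p 0.105 to 0.724). Without the low-value filter Ighg2c (0.134), Ighj1 (0.0984), Iglj1 (0.133), Igkv12-46 (0.131) and Ighv3-6 (0.0589) were lost, and with a pseudocount of 0.1 Iglj1 (0.175) and Igkv12-46 (0.0784). Leaving out 1 library ended 4 of them: Ighg2c and Iglj1 without M-cDC1 replicates 2 or 3 or M-cDC2 replicates 2 or 3 (adjusted p up to 0.0662), Igkv12-46 without M-cDC1 replicate 2 (0.0571) or M-cDC2 replicate 2 (0.0629), and Ighj1 without M-cDC2 replicate 2 (0.0629). Igkv5-48 and Ighv3-6 reached 1 FPKM in the L-cDC2 libraries alone. Without any 1 of those libraries they failed the filter and could not be tested, so their calls were not put to that check.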

How the results depend on the processing

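Of 1237 alternative values of the 81 gene differences named, 1099 kept their direction and side of the threshold, 127 lost the call, 7 gained one and 4, all between the M groups and never called, changed sign: Ighm (-0.05) was 0.15 with median-of-ratios scaling and with limma-voom, and Igkc (0.07) ranged from -0.0596 to 0.305 on leaving out a library. The 10 members called between L and M in cDC1 became 20 with a pseudocount of 0.1, 4 without the low-value filter, 2 with limma-voom, 6 in a fit of the 2 groups alone, and 5 to 12 on leaving out a library (5 without M-cDC1 replicate 3). With limma-voom the cDC1 calls of Igkc (adjusted p = 0.209), Iglc2 (0.0511) and Iglc3 (0.0543) were lost, as was Igkv12-46 in cDC2 (0.140). The 48 in cDC2 moved between 32 and 55. The 53 between subsets in L ranged from 29 to 56 on leaving out a library (29 without L-cDC2 replicate 2, 33 without replicate 3). The 8 in M became 5 without the filter. The 6 of the comparison of differences became 2 without the filter, 0 with limma-voom and 2 to 10 on leaving out a library (2 without M-cDC2 replicate 2, 3 without M-cDC1 replicate 2, 10 without L-cDC2 replicate 1); a fit of 2 groups cannot be made for it.

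Same-numbered libraries deviated together only weakly (correlations -0.00171 to 0.156, over 0.1 in 2 of 12 pairs). Differently numbered libraries gave -0.153 to 0.0885. These values do not settle whether same-numbered libraries share a batch or an animal, and the main fit left the number out. With the replicate block the 5 counts were, in the order above, 11, 49, 53, 8 and 6. The mean number of V genes with at least 3 reads, 55.3 in L-cDC1, 3 in M-cDC1, 114 in L-cDC2 and 3.67 in M-cDC2, became 24.7, 0.333, 77.7 and 1.67 with at least 10 reads. With 1 read it became 12.7 in M-cDC1 and 13.0 in M-cDC2, and the expected number at 20 V reads was 10.01, 10.4, 14.2 and 7.49. Depth limits the M libraries most, with 20 to 82 V reads each.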

Other observations

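The few V reads were spread unevenly in some M libraries. In M-cDC1 replicate 2, Ighv8-6, a heavy V gene, held 5 (31.2%) of 16 heavy V reads, tied with another heavy V gene at 5. In M-cDC1 replicate 3, Ighv8-6 held 4 (50.0%) of 8 heavy V reads, beside 3 on another gene. Iglv1 took 50.0% of the 20 V reads of M-cDC1 replicate 3. In M-cDC2 replicate 2 the 3 heavy V reads lay on 3 different genes, Ighv9-3 among them, so that no heavy gene led.

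Ighd1-1, a D gene, had 7 reads in L-cDC1 replicate 2 and 6 in L-cDC2 replicate 1, and at most 2 in every other library.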
